A study of Homo sapiens with 4 samples.

Results

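AKBA peaks that bridge several DMSO peaks are places where H3K27me3, the trimethylation of histone H3 at lysine 27, was called by chromatin immunoprecipitation and sequencing as 1 continuous stretch with AKBA and as separate stretches with the solvent DMSO. They were chosen from the peak lists alone: an AKBA peak under 5000 bp wide that overlaps 2 or more DMSO peaks, each by at least 1 bp. The rule found 426 of the 13155 AKBA peaks, which overlap 875 of the 8890 DMSO peaks. The cells were HaCaT, an immortalised line of human keratinocytes. Cells received DMSO in one condition and AKBA in the other for 12 hours, and the 4 libraries are 1 H3K27me3 library and 1 input DNA library per condition. AKBA is commonly short for an acetylated keto boswellic acid of frankincense resin. The labels give neither the full name nor a dose.

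H3K27me3 is written by Polycomb repressive complex 2 and is found over silenced genes, many of them developmental regulators. The complex also binds the mark it has written, through its subunit EED, and this binding stimulates its enzyme EZH2, so that the mark can pass from a nucleosome to its neighbours. Broad domains of the mark often reach a peak caller as several pieces, because signal dips below the threshold between them, and a caller joins pieces that lie within a fixed distance. A gap between peaks is therefore a stretch that was not called, which is not the same as a stretch without the mark.

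With a single H3K27me3 library per condition, differences between the lists could not be set against replicates, and p-values were not computed. Intervals are exact 95% binomial intervals, of a share or of a median by its order statistics. They cover counting error only and treat peaks or gaps as independent. Read depth is not part of a peak list and is unknown here. The narrowest peak was 160 bp in the DMSO list and 214 bp in the AKBA list. The smallest gap between neighbouring peaks was 641 bp with DMSO and 857 bp with AKBA, in both lists 1 bp more than 4 times the narrowest width. A DMSO gap of 641 to 856 bp thus has a width at which the AKBA list holds no gap anywhere, and results on gaps are given on both sides of that limit. Positions are in the human genome build hg19. No gene, exon or promoter is named, because the annotation at hand was of another build.

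The 426 bridging peaks made up 3.30% of the 12913 AKBA peaks under 5000 bp, a share set by the rule. Of the AKBA peaks under that width that overlapped any DMSO peak, they were 10.7% (interval 9.74 to 11.7%). Most were simple: 403 joined 2 DMSO peaks, 21 joined 3 and 2 joined 4. Their widths ran from 1071 to 4985 bp with a median of 3020 bp (interval 2901 to 3184). The median peak score, a number given by the authors' peak caller whose scale is not stated, was 4.39 (4.29 to 4.53), against 2.99 for the whole AKBA list. In AKBA peaks of the same width range with 1 DMSO peak, narrower in the median, it was 4.24 (4.16 to 4.32). Scores by width class are given further below. Beside the width limit, the widest bridging peak measured 4985 bp, and the next bridging peak above the limit measured 5001 bp, on chromosome 14 from 69725376 to 69730376, with 2 DMSO peaks. Above the limit lay 157 more bridging peaks. Beside the overlap limit, the least overlap between a bridging peak and one of its DMSO peaks was 3 bp, and in 43 of the 426 the least overlap was under 100 bp. A score of at least 3 in both lists kept 6524 AKBA and 4517 DMSO peaks, and 181 bridging peaks were found among them. With a width limit of 3000 bp 206 were found.

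Much of the sequence in bridging peaks was bridged gap, which DMSO peaks did not cover. The 426 peaks covered 1296 kb, of which 616 kb (47.5%) was also called with DMSO, 433 kb (33.4%) lay in the gaps between DMSO peaks and 247 kb (19.0%) lay outside the outermost DMSO edges. In the median bridging peak DMSO peaks covered 46.0% of the width (interval 43.7 to 49.1%) and gaps 32.6% (30.9 to 34.2%). AKBA peaks of the same width range with a single DMSO peak were covered by it to a median of 54.7% (52.8 to 56.4%). Their median width was 1972.5 bp, against 3020 bp for bridging peaks. By the rule each bridging peak holds an uncovered gap of at least 641 bp, so part of this difference is built in. In the other direction, 81.3% of the bases of the bridged DMSO peaks lay inside the bridging peaks. Of the 877 overlaps between a bridging peak and a DMSO peak, 521 (59.4%, interval 56.1 to 62.7%) had the DMSO peak wholly inside, and 2 DMSO peaks were overlapped by 2 bridging peaks each.

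The pieces were often unequal. Among the peaks that joined 2 DMSO peaks, 228 of 403 (56.6%, interval 51.6 to 61.5%) had one DMSO peak at least 2 times as wide as the other. The wider piece had a median width of 1099 bp (1031 to 1171) and the narrower a median of 396 bp (363 to 436), over all bridging peaks. The narrower piece was at the narrowest width of the DMSO list, 160 bp, in 30 of 426 cases. Bridged DMSO peaks were narrower than the other DMSO peaks that overlap an AKBA peak, with medians of 654 bp (601 to 696) and 904 bp (873 to 945). Median scores within the DMSO list were 3.35 (3.28 to 3.44) and 3.35 (3.31 to 3.39), and both lay above the median of 2.72 for DMSO peaks that no AKBA peak overlaps. The width limit on the bridging peaks bounds the width of the pieces, and how much of the difference in width it makes was not tested.

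The bridged gaps were short. There were 451, from 641 to 3497 bp, with a median of 829 bp (interval 796 to 870) and quartiles of 719.5 and 1081 bp. Of these, 240 (53.2%, 48.5 to 57.9%) were under 857 bp and so below the smallest gap that the AKBA list holds. The other 211 (46.8%, 42.1 to 51.5%) were wider, with a median of 1106 bp (1047 to 1153). Gaps of at least 1000 bp numbered 142, those of at least 1500 bp 37, those of at least 2000 bp 8, and 1 was above 3000 bp. Counted by peak, 209 of the 426 bridging peaks (49.1%, 44.2 to 53.9%) crossed at least 1 gap of 857 bp or more, and the other 217 crossed narrower gaps alone.

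Set against all gaps between neighbouring DMSO peaks up to 5000 bp, bridging became rarer as the gap grew. AKBA peaks under 5000 bp bridged 451 of the 2302 such gaps (19.6%, the overall share), and wider AKBA peaks bridged 255 more. Of the 583 gaps from 641 to 856 bp, 353 (60.5%, interval 56.5 to 64.5%) were bridged by an AKBA peak of any width. The share was 44.5% (38.1 to 51.1%) from 857 to 999 bp, 35.5% (31.1 to 40.1%) from 1000 to 1499 bp and 19.3% (14.8 to 24.4%) from 1500 to 1999 bp. It was 8.29% (5.66 to 11.6%) from 2000 to 2999 bp and 1.504% (0.554 to 3.24%) from 3000 to 5000 bp. Intervals of neighbouring classes did not overlap except at 1 step, between 857 to 999 and 1000 to 1499 bp. Part of the fall is built in, since a wide gap needs a wide peak to span it.

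**Figure D1:**
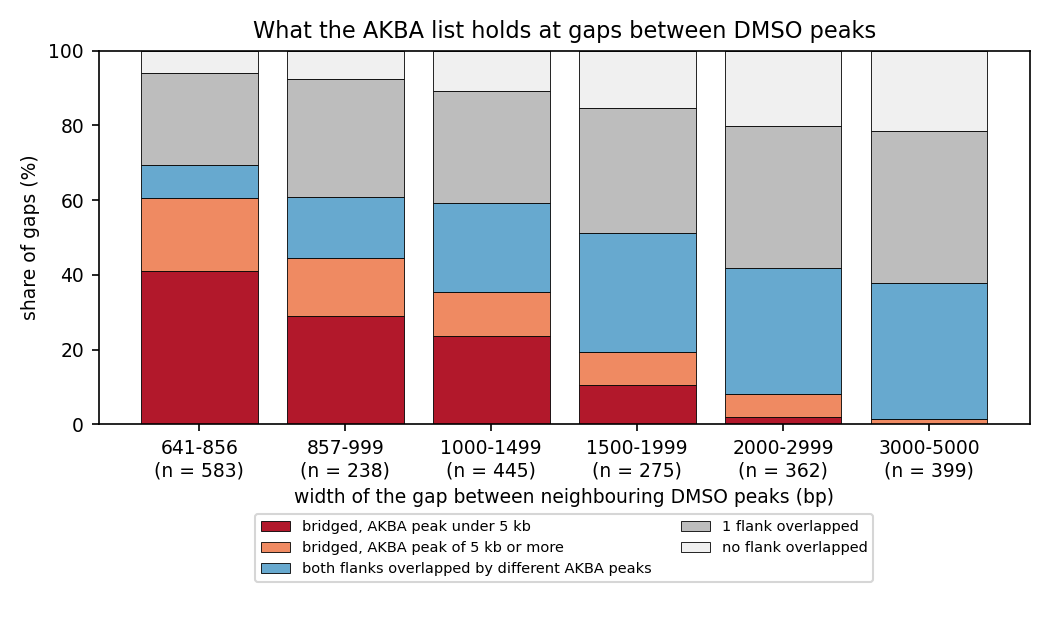
Stacked bars give the share (%) of gaps between neighbouring DMSO peaks, by gap width in bp, that were bridged by an AKBA peak under 5 kb, bridged by a wider one, flanked by DMSO peaks that different AKBA peaks overlap, or had 1 flank or no flank overlapped. Bridged gaps of both kinds fall from 60.5% of the 583 narrowest gaps to 1.504% of the 399 widest, while gaps kept between 2 AKBA peaks rise from 8.92% to 36.3%.

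Many DMSO gaps were kept in the AKBA list. In 552 of the 2302 (24.0%, interval 22.2 to 25.8%), both flanking DMSO peaks were overlapped by AKBA peaks but by different ones. Of the 1719 gaps of 857 bp or more, AKBA peaks of any width bridged 353 (20.5%, 18.6 to 22.5%) and 500 were kept in this way. Among those 853 gaps with both flanks marked in both lists, 41.4% (38.1 to 44.8%) were bridged. The kept gaps of 857 bp or more had a median of 2121 bp (1949 to 2342), against 1145 bp (1098 to 1186) for those bridged by AKBA peaks of any width. The narrower flanking DMSO peak had a median of 604 bp (555 to 643) at kept gaps and 481 bp (413 to 546) at bridged gaps. The wider flank had 1563 bp (1414 to 1712) and 1347 bp (1213 to 1552), with overlapping intervals. Beside the 211 gaps that AKBA peaks under 5000 bp bridged, the flanks had medians of 355 and 977 bp, and the limit on the AKBA width bounds them. The lower of the 2 flank scores had a median of 2.97 (2.90 to 3.03) at kept gaps and 2.97 (2.89 to 3.04) at gaps bridged by any AKBA peak, in the DMSO list. In 511 kept gaps no further AKBA peak lay between, and the break measured a median of 1793 bp (1700 to 1961) with DMSO and 1361 bp (1303 to 1434) with AKBA. The AKBA break was the narrower one in 323 of the 511 (63.2%, 58.9 to 67.4%). A DMSO break under 857 bp, as at 52 of the 552 kept gaps, cannot be wider than an AKBA break. DMSO breaks were limited to 5000 bp, whereas AKBA breaks ran to 5888 bp. The share was not split at 857 bp.

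Bridging also occurred the other way, less often. DMSO peaks under 5000 bp overlapped 2 or more AKBA peaks in 72 of 8820 cases (0.816%), against 426 of 12913 AKBA peaks. They crossed 73 AKBA gaps, from 859 to 1722 bp, with a median of 1000 bp (interval 962 to 1046). Of the 3206 AKBA gaps up to 5000 bp, all of them at least 857 bp, DMSO peaks of any width bridged 87 (2.71%, 2.18 to 3.34%), against 20.5% of DMSO gaps of that width range bridged by AKBA peaks. Where both flanks were marked in both lists, the shares were 13.2% (10.7 to 16.0%) of 661 AKBA gaps and the 41.4% of DMSO gaps given above. The AKBA list holds more and wider peaks than the DMSO list, at unknown depth. Its smallest gap is also wider, 857 against 641 bp, so DMSO peaks stay split at gaps that the AKBA list never holds. The part of these in the difference of the shares cannot be told apart from the treatment. Shares of AKBA gaps were not computed with DMSO peaks joined. The reach of the 72 bridging DMSO peaks relative to the outer AKBA edges, left plus right, had a median of -1103 bp (-1393 to -840), and 6 of them passed both edges. When DMSO peaks were first joined across gaps of up to 856 bp, 108 of them bridged AKBA peaks, against 209 AKBA peaks that bridged DMSO peaks. These are counts from lists of unlike size, 13155 AKBA peaks against 8890 DMSO peaks before joining closed 583 gaps. Shares of peaks after joining were not computed, so the counts do not show by how much the 2 directions differ. Without joining, bridging DMSO peaks numbered 39 with a score of at least 3, against 181 bridging AKBA peaks. Where each AKBA peak had to be overlapped by at least 50% of its width they numbered 18. With the matching rule on DMSO peaks there were 316 bridging AKBA peaks.

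The outer edges of the bridging AKBA peaks lay on either side of those of the DMSO peaks they joined, at a median distance of 299.5 bp (interval 275 to 332) without regard to direction. The signed distance from each AKBA edge to the outermost DMSO edge on that side, positive where AKBA reached farther, had a median of 72.5 bp (interval 40 to 112) on the left and 67 bp (36 to 113) on the right. The quartiles were -178.5 and 363.5 bp for left edges and -207.75 and 442.5 bp for right edges. Of the 852 edges, 496 (58.2%, 54.8 to 61.6%) passed the DMSO edge, by a median of 326.5 bp, and 356 stopped short of it. The AKBA edge was within 100 bp of the DMSO edge in 184 (21.6%). It passed by over 500 bp in 187 (21.9%) and stopped short by over 500 bp in 96 (11.3%).

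Both sides together, bridging peaks reached past the DMSO span, from the first start to the last end, by a median of 182 bp (interval 99 to 285), where the narrowest widths of the lists differ by 54 bp. The median AKBA width was 1.08 times the DMSO span (1.04 to 1.11). On both sides 142 of the 426 (33.3%, 28.9 to 38.0%) passed the DMSO edges, and 72 (16.9%, 13.5 to 20.8%) stopped short of both. The other 212 passed one edge and stopped short of the other, 110 of them past on the left and 102 past on the right. At the 356 short edges, a median of 34.9% (30.7 to 41.1%) of the outer DMSO peak lay outside, and over 50% of it in 130. With the overlap rule tightened to at least 50% of each DMSO peak, the median reach was 450 bp, and with a width limit of 3000 bp it was -35 bp, so the size of the reach is set in part by the rule.

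**Figure D2:**
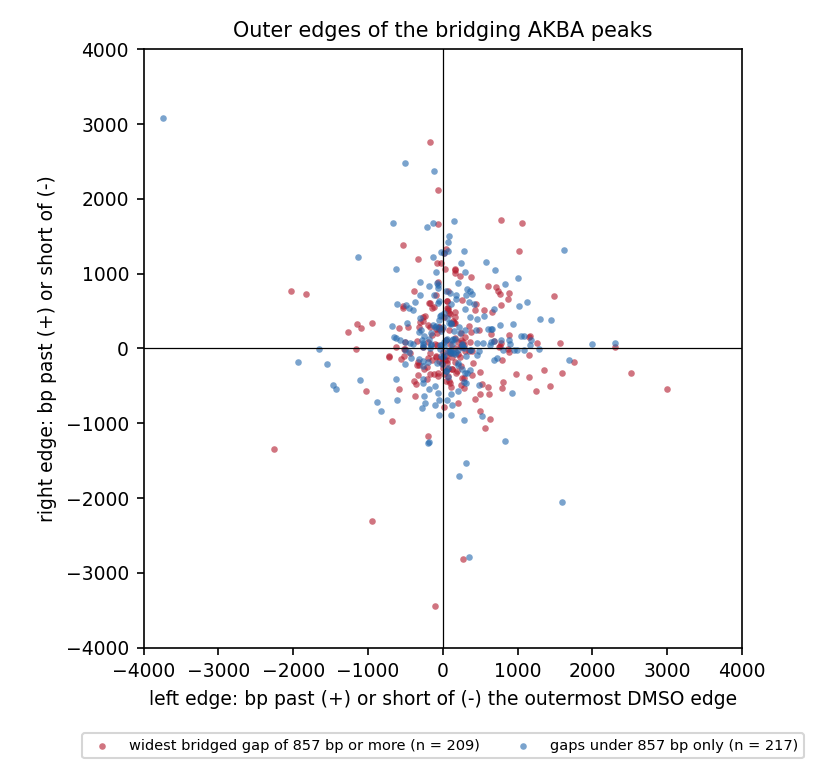
Each point is 1 of the 426 bridging AKBA peaks, with the distance in bp of its left edge (x axis) and right edge (y axis) past (+) or short of (-) the outermost DMSO edge on that side. Red points crossed a gap of 857 bp or more (209) and blue points narrower gaps alone (217). Points of both sets lie on all sides of 0, and 142 points lie at the upper right, past both edges, against 72 at the lower left.

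The edges were also set out by the width of the gap crossed, and the intervals of wide-gap and narrow-gap peaks overlapped. The median reach was 163 bp (interval 37 to 323) for the 209 peaks with a gap of 857 bp or more and 209 bp (83 to 366) for the other 217. They passed both edges in 32.1% (25.8 to 38.8%) and 34.6% (28.3 to 41.3%) of cases. Median AKBA scores were 4.35 (4.17 to 4.51) and 4.43 (4.24 to 4.75). DMSO peaks covered 39.7% (35.8 to 43.6%) of the median wide-gap peak and 52.9% (49.95 to 55.9%) of the median narrow-gap peak. The split is by the width of a stretch that DMSO peaks do not cover, so this difference is in part built in. Peaks past both edges had a median score of 4.31 (3.99 to 4.46), those past one edge 4.51 (4.31 to 4.72) and those short of both 4.34 (3.99 to 4.999), with overlapping intervals.

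The edges were compared with those of one-to-one pairs, in which an AKBA peak under 5000 bp and a DMSO peak overlap each other and no further peak. Pairs whose DMSO width lay in the range of the bridged spans numbered 1428, with a median DMSO width of 1679 bp, against a median span of 2682.5 bp in bridging peaks. Their median signed edge distance was 80.0 bp (interval 63 to 100), against 70.0 bp (46.0 to 102) for bridging peaks. Without regard to direction it was 345 bp (326 to 366), against 299.5 bp. In the pairs 59.0% of edges passed the DMSO edge (57.1 to 60.8%), against 58.2%. The pairs passed both edges in 32.9% (30.5 to 35.4%) and stopped short of both in 14.8% (13.04 to 16.8%). The reach of both sides was 214 bp (161 to 268) in the pairs and 182 bp in bridging peaks. Pooled over spans, the intervals of both kinds of AKBA peak overlapped in each of these measures. The pairs had the shorter DMSO spans, so the pooled values compare unlike mixes of span.

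The reach was also set out by width of the DMSO span, where the rule bounds it on both sides. For spans of 1000 to 1999 bp the median reach was 642 bp (interval 375 to 932) in 100 bridging peaks and 212.5 bp (150 to 273) in 930 pairs. For 2000 to 2999 bp it was 264 bp (127 to 418) and 260 bp (142 to 343), and for 3000 to 3999 bp 101 bp (-8 to 243) and 215 bp (-30 to 405). For 4000 to 4999 bp it was -204 bp (-400 to 2) in 40 bridging peaks and 272.5 bp (-542 to 488) in 18 pairs. At 1000 to 1999 bp, 49.0% (38.9 to 59.2%) of bridging peaks and 33.4% (30.4 to 36.6%) of pairs passed both edges. In the other classes the intervals of this share overlapped. A bridging peak has to cross a gap of at least 641 bp and touch the DMSO peaks on both sides, so in a short span it cannot stop far short, as a one-to-one peak can. The limit of 5000 bp on the AKBA width holds down the reach in the widest spans of both kinds. Differences between the kinds by span are therefore set in part by how they were chosen.

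**Figure D3:**
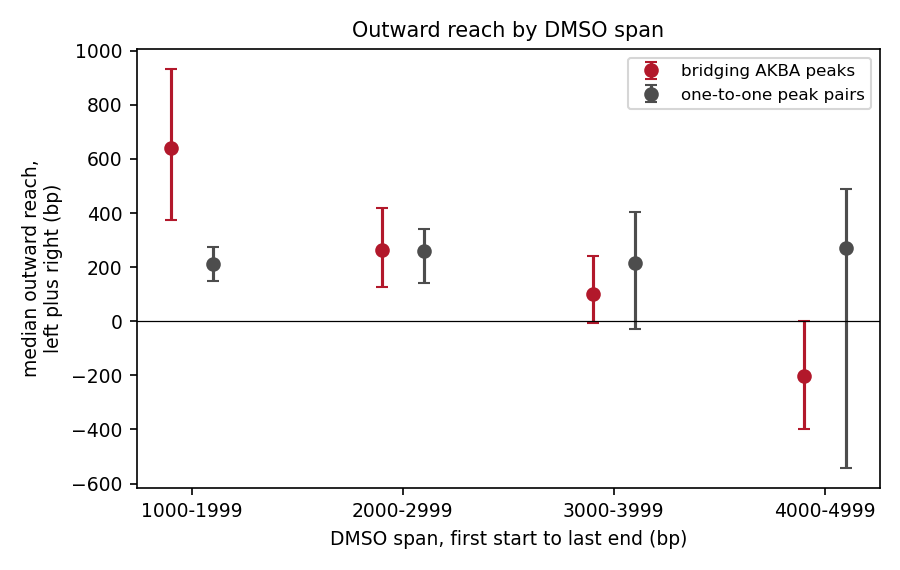
Points give the median distance (bp), left plus right, by which AKBA peaks reached past the outer DMSO edges, for bridging peaks (red) and one-to-one pairs (grey), in 4 classes of DMSO span in bp, and bars the exact 95% binomial interval of the median. The medians are 642 and 212.5 bp at spans of 1000 to 1999 bp, where the rule limits how far short a bridging peak can stop, and the intervals overlap in the other classes.

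Among AKBA peaks of a given width, bridging was commoner the wider the peak, as a wider peak has more room for it. Bridging peaks were 2.85% (interval 2.25 to 3.55%) of the 2671 AKBA peaks of 1000 to 1999 bp, 13.8% (11.7 to 16.2%) of the 940 of 2000 to 2999 bp, 29.1% (24.96 to 33.4%) of the 461 of 3000 to 3999 bp and 42.2% (35.3 to 49.3%) of the 204 of 4000 to 4999 bp. At 3000 to 3999 bp the median score was 4.47 (4.31 to 4.74) for bridging peaks, 4.85 (4.71 to 5.16) for peaks with 1 DMSO peak and 3.07 (2.89 to 3.43) for the 30 with none. At 2000 to 2999 bp it was 4.21 (3.76 to 4.51), 4.45 (4.31 to 4.59) and 3.09 (2.95 to 3.26). At 1000 to 1999 bp bridging peaks had 4.12 (3.52 to 4.49) and peaks with 1 DMSO peak 3.81 (3.70 to 3.87), and at 4000 to 4999 bp they had 4.74 (4.43 to 5.33) and 5.18 (4.93 to 5.64). Bridging peaks thus had the higher median in 1 of the 4 classes and the lower in 3, with overlapping intervals in each.

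Both peaks that joined 4 DMSO peaks crossed gaps under 857 bp alone. On chromosome 17 an AKBA peak from 33815183 to 33819825, 4643 bp wide, joined 4 DMSO peaks of 656, 190, 617 and 854 bp across gaps of 743, 770 and 809 bp. It began 486 bp before the first and ended 482 bp short of the end of the last, so that its width nearly equalled the DMSO span of 4639 bp. On chromosome 12 an AKBA peak from 114832270 to 114835999 joined 4 DMSO peaks of 562, 397, 691 and 889 bp across gaps of 740, 686 and 662 bp, and stopped 258 and 639 bp short of the outer edges. The widest of the 21 peaks that joined 3 DMSO peaks, on chromosome 2 from 105466618 to 105471569, joined DMSO peaks of 383, 160 and 4938 bp across gaps of 865 and 1151 bp, and ended 2813 bp before the widest of them did.

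The widest bridged gaps lay on chromosomes 16, 13 and 7. On chromosome 16 the AKBA peak from 56223637 to 56228621, which is also the widest under the limit, crossed a gap of 3497 bp between DMSO peaks of 647 bp (56223432 to 56224078) and 958 bp (56227576 to 56228533). It began 205 bp inside the left DMSO edge and passed the right one by 88 bp, and 28.1% of it was called with DMSO. On chromosome 13, from 102568246 to 102571982, an AKBA peak crossed 2747 bp between DMSO peaks of 1347 and 160 bp, short of their edges by 505 and 12 bp. On chromosome 7, from 127255592 to 127258884, an AKBA peak crossed 2388 bp between DMSO peaks of 680 and 218 bp, began 529 bp inside the left DMSO edge and passed the right one by 536 bp. DMSO peaks covered 11.2% of it. AKBA scores at these 3 places were 3.67, 4.05 and 3.42, below the median of 4.39 for bridging peaks.

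The 3 highest-scoring bridging peaks crossed gaps of 706 to 954 bp and were mostly called with DMSO too. The highest score, 10.1, was on chromosome 13 from 100634407 to 100637582, where a gap of 706 bp parted DMSO peaks of 1697 and 739 bp and the AKBA edges lay 66 bp past and 32 bp short. The next, 8.47, was on chromosome 9 from 95568522 to 95572546, with DMSO peaks of 253 and 2859 bp and a gap of 736 bp. The third, 8.43, was on chromosome 6 from 41339210 to 41342429, with DMSO peaks of 912 and 2118 bp and a gap of 954 bp. DMSO peaks covered 75.7%, 74.6% and 69.8% of these peaks. Of these 3 gaps, the one on chromosome 6 was above 857 bp.

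**Figure D4:**
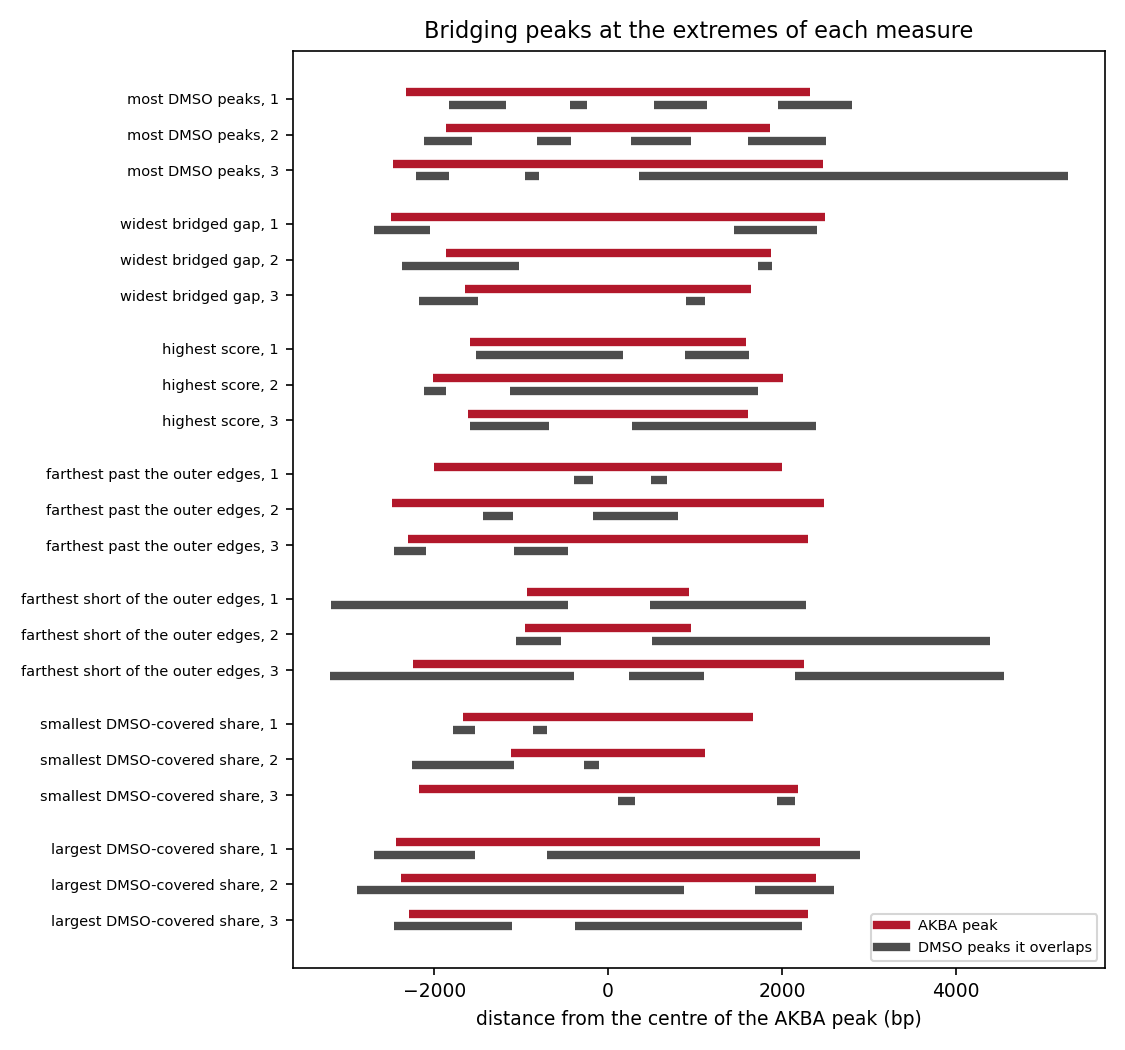
Each pair of lines shows 1 AKBA peak (red) above the DMSO peaks it overlaps (grey), to scale in bp from the centre of the AKBA peak, for the 3 bridging peaks at each extreme of 7 measures. The widest bridged gap, 3497 bp, spans most of its AKBA peak, whereas peaks that stop farthest short, by up to 3600 bp in all, cross the gap and end inside wide DMSO peaks.

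At the extremes of the outer edges, bridging took opposite forms. The peak that reached farthest out, on chromosome 3 from 120167486 to 120171489, joined DMSO peaks of 212 and 186 bp across 671 bp and passed them by 1613 bp on the left and 1322 bp on the right. The next, on chromosome 9 from 71318432 to 71323401, passed its DMSO peaks of 340 and 982 bp by 1052 and 1675 bp. The third, on chromosome 10 from 100992422 to 100997016, began 166 bp inside the left DMSO edge and passed the right one by 2757 bp. At the other end, an AKBA peak of 1869 bp on chromosome 11, from 33883599 to 33885467, crossed a gap of 940 bp and stopped 2255 and 1345 bp short, inside DMSO peaks of 2730 and 1799 bp. On chromosome 16, from 86232138 to 86234039, an AKBA peak of 1902 bp crossed 1044 bp and left 3439 bp of a DMSO peak of 3888 bp uncovered on the right. The third, on chromosome 1 from 156404591 to 156409087, joined 3 DMSO peaks and stopped 947 and 2307 bp short. At these 3 places where AKBA peaks stopped short, the next AKBA peak lay 973, 1525 and 1566 bp away.

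The share called with DMSO ran from 8.89 to 83.0% of a bridging peak. It was lowest on chromosome 3, from 3840720 to 3844049, where an AKBA peak with a score of 5.21 joined DMSO peaks of 252 and 166 bp near its left end and passed them by 2367 bp on the right. Chromosome 9, from 138170545 to 138172784, followed with 9.38%. On chromosome X the AKBA peak from 99662053 to 99666411 had 9.50%, and its DMSO peaks of 196 and 218 bp lay 1624 bp apart. It was highest on chromosome 6 from 137814684 to 137819552, where DMSO peaks of 1172 and 3595 bp and a gap of 827 bp filled the AKBA peak. Next came chromosome 9, from 124980670 to 124985442, with 82.9% and a gap of 818 bp, then chromosome 1, from 200007461 to 200012051, with 82.8% and a gap of 725 bp.

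Bridging peaks were found on all 23 chromosomes that hold peaks. Chromosome 1 held 40, chromosome 9 held 32 and chromosome 20 held 28. As a share of the DMSO gaps up to 5000 bp, AKBA peaks under 5000 bp bridged 22.7% (interval 17.1 to 29.2%) of 198 on chromosome 1, 19.9% (14.0 to 26.9%) of 161 on chromosome 9 and 19.6% (13.4 to 27.04%) of 143 on chromosome 20. The interval included the overall 19.6% on 21 of the 23 chromosomes. The exceptions, named after their values were seen, were chromosome X, where 15 of 35 gaps were bridged (42.9%, 26.3 to 60.6%), and chromosome 10, with 14 of 133 (10.5%, 5.88 to 17.0%). On chromosome X, 8 of the 26 gaps of at least 857 bp were among those bridged, against 211 of 1719 (12.3%, 10.8 to 13.9%) over all chromosomes. Counted per 100 AKBA peaks, bridging peaks numbered 3.24 over all chromosomes, and 20 of the 23 intervals included that value. Outside it were chromosome X with 9.49 (5.41 to 15.2), chromosome 4 with 7.41 (4.58 to 11.2) and chromosome 10 with 1.85 (1.01 to 3.08). These intervals are not adjusted for the number of chromosomes compared.

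**Figure D5:**
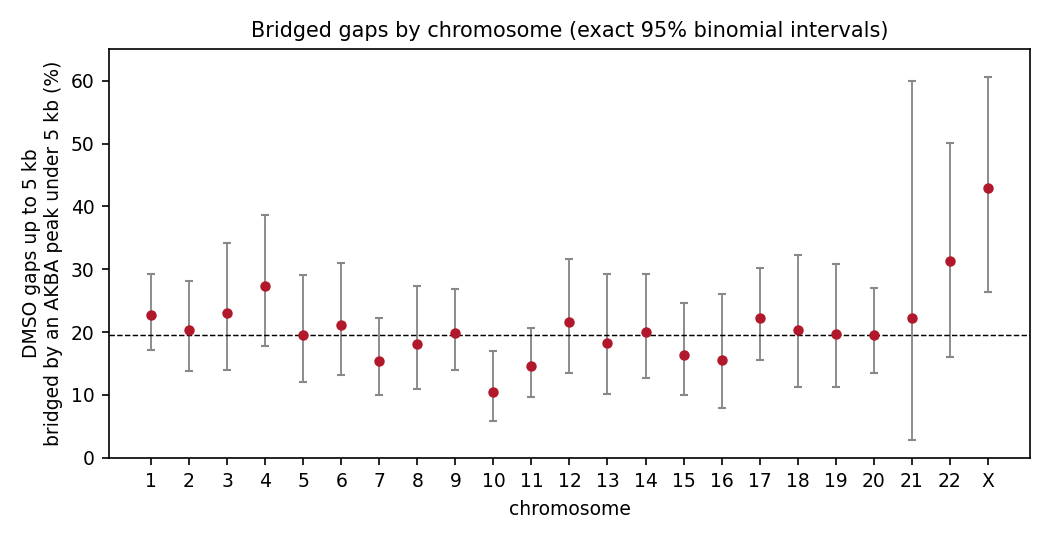
Points give the share (%) of DMSO gaps up to 5 kb that an AKBA peak under 5 kb bridged on each chromosome, bars the exact 95% binomial interval, and the dashed line the overall 19.6%. Chromosome X, at 42.9%, and chromosome 10, at 10.5%, are those whose bars do not cross the line.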

How the data were processed

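H3K27me3 and input DNA libraries of HaCaT cells with DMSO or AKBA were made, and peaks of each H3K27me3 library were deposited separately. Per the submitters' processing notes the build was hg19 and the tools were BWA, STAR and MACS2, without versions or roles. The deposited lists hold positions and a score per peak on an unstated scale, so scores were compared within a list only. A common score minimum assumes 1 scale. Nothing read here states the threshold, the handling of duplicates or the use of input. Overlaps, gaps, edges and exact 95% Clopper-Pearson intervals were computed in Python 3.11.15 (scipy 1.17.1, pandas 2.3.3, numpy 2.4.6), tested on simulated data and checked with bedtools 2.31.1. Coordinates are 1-based. The rule, measures and alternatives were chosen with earlier results of these data known. Regions named were the 3 at each extreme of 7 measures and the 3 chromosomes with most bridging peaks. With 1 library per condition no test was run. Sequences and genes were not used here, as the reference tables are of another build.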

Additional observations from a re-analysis of the deposited data

How the results depend on the processing

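Of 64 recomputed values (8 results under 8 alternatives), 40 stayed within 1.5 times (counts) or within the binomial interval of the reported value. Joining DMSO peaks across gaps up to 856 bp left 209 bridging peaks, a gap median of 1106 bp, 100% of gaps at or over 857 bp by construction, 42.6% of the width covered by DMSO peaks and 12.3% of gaps bridged. A score of at least 3 kept 6524 AKBA and 4517 DMSO peaks. It gave 181 bridging peaks, 50.1% covered, 21.4% of gaps bridged and 39 DMSO peaks that bridge. A width limit of 3000 bp gave 206 peaks, a gap median of 788 bp, 40.7% of gaps at or over 857 bp, a reach of -35 bp with an interval of -154 to 83, 21.8% past both edges, 41.5% covered and 9.08% of gaps bridged. No limit gave 50.02% covered and 30.7% bridged. Overlap of at least 50% of each DMSO peak gave a reach of 450 bp, 46.8% past both edges, 49.6% covered, 14.4% bridged and 18 DMSO peaks that bridge. Overlap of 100 bp gave 17.7% bridged. The same number of top-scoring peaks, and leaving out peaks at the narrowest width, changed none of the 8 results beyond these bounds. No paired analysis was possible because each condition has 1 H3K27me3 library. Unknown depth limits every comparison.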

Other observations

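Bridging AKBA peaks lay near further AKBA peaks: 229 of 426 (53.8%, exact 95% binomial interval 48.9 to 58.6%) had one within 5000 bp, against 45.9% (44.2 to 47.6%) of the 3433 other AKBA peaks of the same width range. The median distance to the nearest AKBA peak was 3998 bp (3127 to 5227) and 6804 bp (5888 to 7399). Of the other peaks, 1279 overlapped no DMSO peak, with a median width of 1404 bp, and 2154 overlapped 1, with 1972.5 bp. The median width of bridging peaks was 3020 bp. The rule also picks places where DMSO peaks lie close together, and its part in these differences was not tested. Neighbouring pairs of bridging peaks in the AKBA list numbered 14, where bridging peaks are 3.24 of every 100 AKBA peaks. Within 10 kb of another bridging peak lay 23 of the 426 (5.40%, 3.45 to 7.99%). An AKBA peak of 5000 bp or more lay within 10 kb of 34 bridging peaks (7.98%, 5.59 to 10.98%). The matching shares of other AKBA peaks were not computed, so these counts do not show whether bridging peaks cluster. In 18 bridging peaks (4.23%, 2.52 to 6.60%) a DMSO peak was also overlapped by a further AKBA peak, so that the pieces of both lists interlocked.

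The bridging peak whose left edge stopped farthest short, picked after its values were seen, spans 138667528 to 138672021 of chromosome 3 and scored 6.10. It began 3738 bp inside the left DMSO edge, at the end of a DMSO peak of 4109 bp, crossed a gap of 794 bp and passed the right DMSO edge by 3075 bp, so that DMSO peaks covered 13.9% of it.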
